A study of Mus musculus with 6 samples.

Results

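Foxa1, the other 2 genes of the FOXA family and 5 of the transcription factors that work with them in hepatocytes are described here in livers of a mouse model of non-alcoholic steatohepatitis (NASH). The 8 genes are Foxa1, Foxa2, Foxa3, Hnf4a, Cebpa, Onecut1, Nr5a2 and Prox1, out of 24346 gene symbols with a value. They were chosen from the measured values of Foxa1, which fell in these livers, and the other 7 were taken for their kinship with it or their known role beside it. The values of Foxa1 are therefore a description, given with no test. All 8 genes passed the filter on low values, which kept genes averaging 0.5 FPKM or more. FPKM relates the fragments of a gene to its transcript length and to the library's mapped total, so it is a level already divided by transcript length.

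RNA was taken from the whole liver of 3 control and 3 lipophagy-induced mice and sequenced as poly(A) libraries. The mice were C57BL/6 by the labels and C57BL/6J males of 8 weeks at the start by the methods of the study, and had been fed CDAHFD, a high-fat diet lacking choline that brings about NASH, for 6 weeks. They then received a single dose of adeno-associated virus of serotype 8, were returned to normal chow, and were analysed 2 weeks later. In lipophagy livers the virus encoded LDTS-eLIR, in which a lipid droplet-targeting sequence is joined to an engineered LC3-interacting region, so that droplets are carried to autophagy. In control livers it encoded LDTS-LIR mut, whose LC3-interacting region is mutated, so both groups carried the droplet-targeting part, mCherry, the virus and the diet. The thyroxine-binding globulin promoter, which is active in hepatocytes, drove both constructs, and the RNA came from all cells of the liver. Hepatocyte markers were present in every liver, with 24 of 25 in the table and tested (Tf was not in it), and their FPKM summed to between 91678 and 101280 in control livers and between 107380 and 133370 in lipophagy livers. Nothing in the labels says more of the animals behind each number, so p-values measure the spread between these 6 samples.

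FOXA proteins are pioneer factors, which bind DNA on nucleosomes through a winged-helix forkhead domain and open liver enhancers to other factors. Foxa1 and Foxa2 are needed together for the liver to form in the embryo and for the bile ducts to stay normal, and the FOXA proteins share many of their sites in the adult liver. HNF4α, a nuclear receptor, and C/EBPα, a basic leucine zipper factor, hold much of the adult hepatocyte programme, while HNF6 (Onecut1), LRH-1 (Nr5a2) and PROX1 act with them on bile acid, glucose and lipid genes.

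The sequence just upstream of the start of each FOXA gene, and of Onecut1, is shown because these 4 are the family and the one partner factor whose values the account turns on. Each is given 5′ to 3′ on the gene's strand from RefSeq (GRCm38.p6), from 250 to 11 bases before the start, and overlaps no annotated exon. Capitals mark matches, on either strand, to the forkhead letters TGTTTAC or their variant TGTTTGC, the Onecut letters ATTGAT, the STAT letters TTCNNNGAA, the AP-1 letters TGANTCA, the NF-Y letters CCAAT and the letters TATAAA of a TATA box. No match overlapped another.
Foxa1: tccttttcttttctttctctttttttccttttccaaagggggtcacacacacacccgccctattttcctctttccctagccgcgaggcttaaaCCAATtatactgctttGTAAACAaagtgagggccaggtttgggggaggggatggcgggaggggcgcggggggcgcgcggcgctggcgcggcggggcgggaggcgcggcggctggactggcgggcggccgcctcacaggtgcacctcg
Foxa2: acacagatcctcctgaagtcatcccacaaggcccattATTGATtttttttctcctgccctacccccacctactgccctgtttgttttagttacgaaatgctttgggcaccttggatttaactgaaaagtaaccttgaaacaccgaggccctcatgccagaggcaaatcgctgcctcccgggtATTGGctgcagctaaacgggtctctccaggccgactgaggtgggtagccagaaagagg
Foxa3: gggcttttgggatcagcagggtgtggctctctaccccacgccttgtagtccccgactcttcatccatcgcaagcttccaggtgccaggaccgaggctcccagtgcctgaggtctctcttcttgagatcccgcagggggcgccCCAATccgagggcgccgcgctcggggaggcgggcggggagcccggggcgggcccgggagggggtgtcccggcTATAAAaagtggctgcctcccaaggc
Onecut1: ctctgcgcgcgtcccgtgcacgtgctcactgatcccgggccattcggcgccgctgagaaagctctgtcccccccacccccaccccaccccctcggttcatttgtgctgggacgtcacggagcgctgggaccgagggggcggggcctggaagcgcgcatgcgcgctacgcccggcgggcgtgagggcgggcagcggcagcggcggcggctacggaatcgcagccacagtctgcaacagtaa
The Foxa1 stretch is chr12:57546122-57546361 on the minus strand, and lies inside the annotated gene (chr12:57540628-57548029), between exons of a longer annotated form. It holds GTAAACA, the forkhead letters TGTTTAC on the other strand, 141 to 135 bases before the start, and CCAAT at 157 to 153. The Foxa2 stretch is chr2:148046980-148047219 on the minus strand, just outside the gene (chr2:148042877-148046969), with ATTGAT at 213 to 208 and ATTGG, which is CCAAT on the other strand, at 68 to 64. The Foxa3 stretch is chr7:19023550-19023789 on the minus strand, just outside the gene (chr7:19013283-19023539), with CCAAT at 108 to 104 and TATAAA at 36 to 31. The Onecut1 stretch is chr9:74861671-74861910 on the plus strand, just outside the gene (chr9:74861921-74889648), and holds none of these letters. Of 32851 upstream stretches of the same length, 3.06% held TGTTTAC, 4.17% TGTTTGC, 6.56% ATTGAT, 6.77% TTCNNNGAA, 6.58% TGANTCA, 33% CCAAT and 12.1% TATAAA. GC content was 62.5% for Foxa1, 51.2% for Foxa2, 68.3% for Foxa3 and 71.7% for Onecut1, against a median of 52.1% over all stretches. A match to these letters is no evidence of binding.

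Foxa1 was lower in every lipophagy liver than in any control liver. Its level was 6.19, 5.40 and 6.08 FPKM in control livers 1, 2 and 3, and 2.85, 2.97 and 3.17 FPKM in lipophagy livers 1, 2 and 3. The mean went from 5.89 ± 0.427 (SD, n = 3) to 3.0 ± 0.161 FPKM (SD, n = 3), that is 50.9% of the control mean. On the log2(FPKM + 1) scale, which understates the change of a gene at this level, the difference was -0.78 with a standard error of 0.083 (limma). The 3 livers of each group lay close together, and the gap between the groups was larger than the spread within either. Foxa1 was chosen by these values, so nothing is read from that gap. An estimated 502, 389 and 628 fragments stood behind the control values and 205, 206 and 239 behind the lipophagy values.

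Of the other 7 factors, 0 had an adjusted p below 0.05 (limma, Benjamini-Hochberg over 11493 tested genes), a threshold that 0.0261% of all tested genes passed. These were 3 genes, all lower in lipophagy livers: Cish, which encodes an inhibitor of cytokine signalling, Phlda1, and Foxa1, whose place there is what it was chosen by. Nothing is read from that place, which depends on the filter and on single livers. At an unadjusted p below 0.05, 7.97% of tested genes were lower and 11.5% higher, and 10.8% were lower and 15.4% higher in every lipophagy liver than in any control liver. With quantile normalization the genes with an unadjusted p below 0.05 were 899 lower and 745 higher, against 916 lower and 1327 higher without it, so the share of higher genes depends on the scaling. Without overlap, 1174 genes were lower and 1176 higher with quantile normalization, against 1241 lower and 1765 higher without it. The FPKM of a liver summed to between 622696 and 681138 in control livers and between 709993 and 782392 in lipophagy livers, and the median log2 difference over all tested genes was 0.020. An estimated 22.8 to 33.9 M fragments stood behind each liver, the most in control liver 3. Any pair of livers correlated across genes with a Spearman rho of 0.9795 or more, and 0 pairs were identical.

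Foxa2, the paralog whose role overlaps most with that of Foxa1, was also lower in every lipophagy liver, with a wider spread than Foxa1. It measured 11.7, 14.9 and 17.5 FPKM in control livers and 7.07, 9.05 and 8.05 FPKM in lipophagy livers. Control liver 1 was the lowest of its group and lipophagy liver 2 the highest of its own, and the groups did not overlap. The mean went from 14.7 ± 2.89 (SD, n = 3) to 8.06 ± 0.988 FPKM (SD, n = 3), 54.8% of the control mean. The log2 difference was -0.78 with a standard error of 0.14 and a 95% interval of -1.12 to -0.45, and it did not pass the adjusted threshold (limma, unadjusted p = 0.000628, adjusted p = 0.116). Leaving out 1 liver at a time gave log2 differences from -0.93 to -0.66. With a pseudocount of 0.1 the difference was -0.85 for Foxa2 and -0.95 for Foxa1, and the 2 were not tested against each other.

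Foxa3, the most abundant FOXA gene in these livers, had overlapping groups. It measured 26.7, 23.0 and 30.9 FPKM in control livers and 22.4, 28.3 and 35.5 FPKM in lipophagy livers. The lowest and the highest value were both from lipophagy livers. The means were 26.8 ± 3.96 (SD, n = 3) and 28.7 ± 6.58 FPKM (SD, n = 3), with a log2 difference of 0.080 and a 95% interval of -0.31 to 0.47 (limma, adjusted p = 0.815). The sign of its difference turned with quantile normalization (-0.033), without control liver 2 (-0.023) and without lipophagy liver 3 (-0.080). The genes on either side of Foxa3, Irf2bp1 (-0.08) and Sympk (0.06), also had small log2 differences with overlapping groups.

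**Figure D1:**
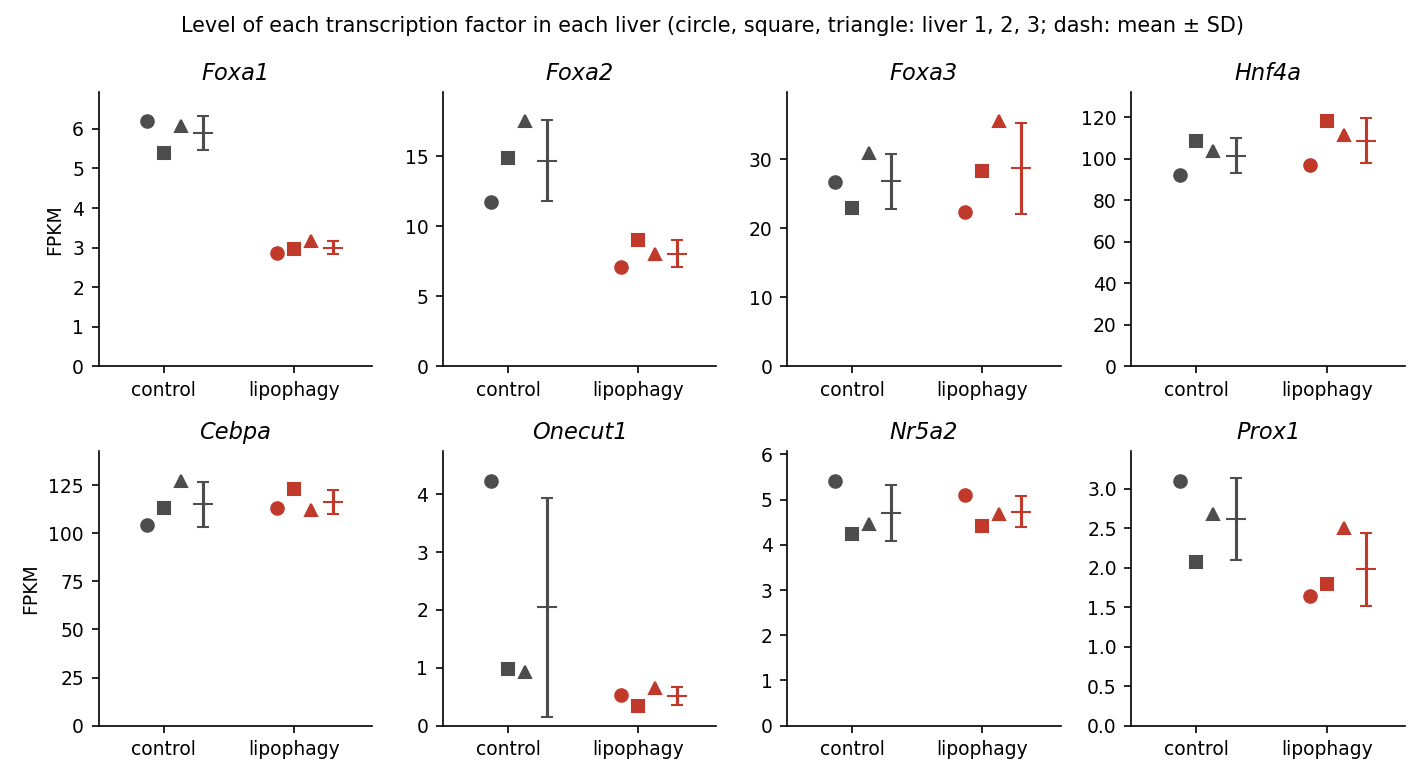
FPKM of each of the 8 factors (vertical axes start at 0 and differ between panels) in the 3 control livers (grey) and the 3 lipophagy livers (red), with circle, square and triangle for livers 1, 2 and 3 and a dash with bars for the mean ± SD. Foxa1 and Foxa2 sit apart in the groups, with every lipophagy liver lower, whereas for Onecut1 control liver 1 at 4.24 FPKM stands far above the other 5 livers.

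The make-up of the FOXA transcripts differed between the groups. The 3 genes together measured 44.6, 43.2 and 54.5 FPKM in control livers and 32.3, 40.3 and 46.7 FPKM in lipophagy livers, which overlap. Foxa1 was 13.9%, 12.5% and 11.2% of that sum in control livers and 8.84%, 7.38% and 6.79% in lipophagy livers. Foxa2 was 30.9% ± 4.17 (SD, n = 3) of it in the control group and 20.5% ± 2.87 (SD, n = 3) in the lipophagy group. Foxa3 made up the rest, 59.8%, 53.1% and 56.7% in control livers and 69.3%, 70.2% and 76.0% in lipophagy livers. The groups did not overlap for any of these shares, which contain Foxa1 and are given with no test. Foxa1 and Foxa2 together went from 20.6 ± 2.85 (SD, n = 3) to 11.1 ± 1.06 FPKM (SD, n = 3).

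The ratio of Foxa2 to Foxa3 leaves Foxa1 out. It was 0.440, 0.647 and 0.567 in control livers and 0.316, 0.320 and 0.227 in lipophagy livers, without overlap, with a log2 difference of -0.94. A two-sided exact permutation test gave p = 0.1, the smallest that 3 livers against 3 can give, and this ratio was chosen after its values were seen. The ratio of Foxa1 to Foxa2 was 0.528, 0.364 and 0.348 in control livers and 0.404, 0.329 and 0.394 in lipophagy livers. Here the groups overlapped, and the highest value was that of control liver 1. The longest identical run between transcripts of these paralogs was 38 bases for Foxa1 and Foxa2, and 20 bases for Foxa3 and each of them, against reads of 100 bases, and how the reads were assigned between them was not tested.

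**Figure D2:**
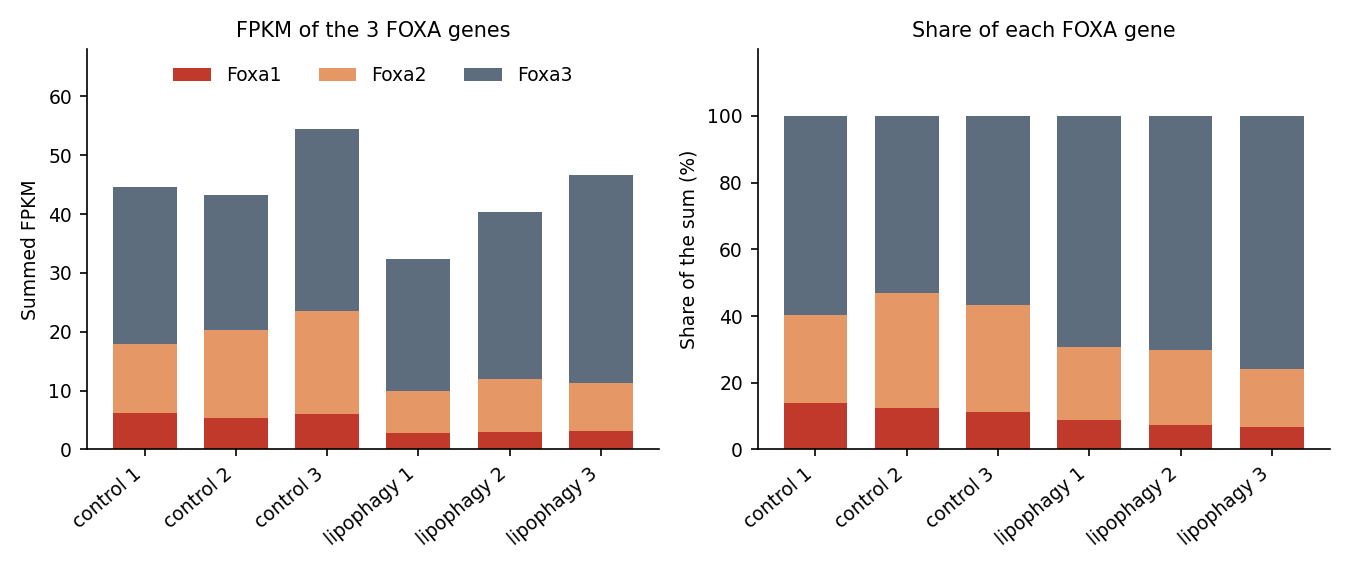
Stacked bars for each of the 6 livers, with the FPKM of Foxa1, Foxa2 and Foxa3 on the left and the share of each in their sum, in percent, on the right. The sums overlap between the groups, and Foxa3 takes 53.1% to 59.8% of the sum in control livers and 69.3% to 76.0% in lipophagy livers.

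Hnf4a and Cebpa were the most abundant of the 8 factors and had small differences. Hnf4a, the nuclear receptor that keeps hepatocytes differentiated, measured 92.3, 108 and 104 FPKM in control livers and 96.8, 118 and 111 FPKM in lipophagy livers. Its log2 difference was 0.097 with a 95% interval of -0.14 to 0.33 (limma, adjusted p = 0.621), and leaving out 1 liver at a time it ranged from 0.030 without control liver 1 to 0.18 without lipophagy liver 1. The groups overlapped, with lipophagy liver 1 inside the range of the control livers. Cebpa, which drives genes of gluconeogenesis and the urea cycle, measured 105, 113 and 127 FPKM in control livers and 113, 123 and 112 FPKM in lipophagy livers. Its log2 difference was 0.016 with a 95% interval of -0.20 to 0.24 (limma, adjusted p = 0.940), and its groups overlapped too. With quantile normalization both differences were below 0, at -0.056 for Hnf4a and -0.14 for Cebpa. The antisense gene Hnf4aos, which overlaps Hnf4a, measured 2.67 ± 0.496 FPKM (SD, n = 3) in the control group and 3.34 ± 0.441 FPKM (SD, n = 3) in the lipophagy group. The library kit marks strand, but the strand setting of the authors' counting is not given in the sources used here, so reads of Hnf4a and Hnf4aos may have been shared between them.

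Onecut1, which acts upstream of Foxa2 and Hnf4a in liver development, was the least abundant factor. The size of its difference, though not its direction, depends on 1 control liver. Onecut1 measured 4.24, 0.983 and 0.934 FPKM in control livers and 0.531, 0.341 and 0.653 FPKM in lipophagy livers. The groups did not overlap with or without control liver 1, which was far above the other 5 livers. The log2 difference was -0.86 with a 95% interval of -1.65 to -0.057 (limma, adjusted p = 0.240), and without control liver 1 it was -0.38 (adjusted p = 0.207). The mean of the lipophagy livers was 24.8% of that of the control livers, and the log2 difference was -1.11 with a pseudocount of 0.5 and -1.51 with 0.1. An estimated 430 fragments stood behind the value of control liver 1, and 30 to 121 behind those of the other livers. No other member had control liver 1 far above the other 5 livers. That liver was still at an edge of the control group, lowest for Foxa2, Hnf4a and Cebpa and highest for Foxa1, Nr5a2 and Prox1.

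Nr5a2, a nuclear receptor for phospholipids that acts on bile acid genes, measured 5.42, 4.25 and 4.46 FPKM in control livers and 5.11, 4.42 and 4.68 FPKM in lipophagy livers. All lipophagy livers lay within the range of the control livers. Its log2 difference was 0.011 with a 95% interval of -0.22 to 0.24 (limma, adjusted p = 0.962). Prox1, a homeobox factor of hepatocytes that also marks lymphatic vessels, measured 3.10, 2.07 and 2.68 FPKM in control livers and 1.64, 1.79 and 2.51 FPKM in lipophagy livers. Lipophagy livers 1 and 2 were below every control liver and lipophagy liver 3 was among them. Its log2 difference was -0.28 with a 95% interval of -0.61 to 0.046 (limma, adjusted p = 0.310), and leaving out 1 liver at a time it ranged from -0.40 without lipophagy liver 3 to -0.18 without control liver 1. Lymphatic markers summed to between 6.35 and 7.31 FPKM in control livers and between 4.75 and 6.18 in lipophagy livers over the 6 of 7 genes in the table, and their part in the Prox1 values was not tested. Of the 4 that were tested, 2 had a positive and 2 a negative difference, with a median of -0.041 whose sign turned with quantile normalization (0.022), without control liver 1 (0.068) and without lipophagy liver 2 (0.047). For these 7 factors, a p above the threshold does not show that the groups were alike, and the intervals give the differences that the data allow.

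**Figure D3:**
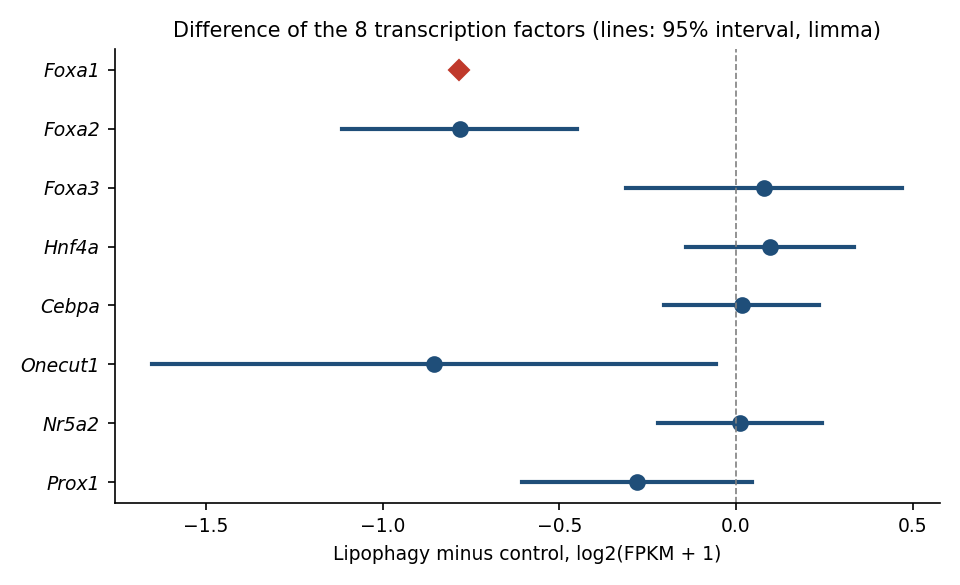
Difference between lipophagy and control livers on the log2(FPKM + 1) scale for each of the 8 factors (points), with the 95% interval from limma (lines) for all but Foxa1, by which the genes were chosen and which is the red diamond with no interval. The intervals of Foxa2 and Onecut1 lie below 0, and those of the other 5 include 0, while 0 of these 7 factors passed the adjusted threshold.

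Levels per transcript length put the 8 factors in nearly the same order in both groups. Cebpa was the highest, followed by Hnf4a, and the ranges of these 2 overlapped in both groups. Foxa3 came next, then Foxa2, whose range was below that of Foxa3 in each group. Foxa1 was above Nr5a2 in each control liver, at 1.14, 1.27 and 1.37 times its FPKM, and below it in each lipophagy liver, at 0.559, 0.673 and 0.678 times. Prox1 and Onecut1 were the lowest, and in control liver 1 Onecut1 was above Prox1. In whole liver, fewer cells of a type and less RNA per cell cannot be told apart in any of these values.

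Genes whose values followed those of Foxa1 most closely over the 6 livers were ranked by Pearson r on the log2(FPKM + 1) scale, as a measure of likeness with no test. The 5 highest were Cish (0.999), Ndor1 (0.991), Dab2ip (0.990), Armc10 (0.990) and Degs1 (0.987). Cish measured 15.8, 10.2 and 13.1 FPKM in control livers and 0.796, 0.934 and 1.40 FPKM in lipophagy livers, and had control liver 2 lowest and lipophagy liver 3 highest within their groups, as Foxa1 did. The log2 differences of the other 4 were smaller, from -0.33 for Dab2ip to -0.15 for Armc10. The 5 lowest were Slmo2 (-0.994), Ptcd2 (-0.993), Mad1l1 (-0.993), Lamp2 (-0.992), which encodes a lysosomal membrane protein, and Igbp1 (-0.990). Lamp2 measured 216, 219 and 215 FPKM in control livers and 263, 252 and 251 FPKM in lipophagy livers. All 10 genes had groups that did not overlap, and an r of this kind comes mostly from the gap between the groups.

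Other hepatocyte transcription factors differed in both directions, and a smaller share of them than of all tested genes had groups without overlap. Of 53 listed, 48 were tested, 30 with a positive and 18 with a negative difference (21 and 27 with quantile normalization), and the median log2 difference was 0.026. Of these, 0 passed the adjusted threshold (limma), and 2 were lower and 3 higher at an unadjusted p below 0.05. Over all tested genes those shares were 7.97% and 11.5%. Without overlap, 2 were lower and 2 higher, against 10.8% and 15.4% of all tested genes. The median depends on single livers and on scaling, at -0.012 without control liver 1, 0.078 without lipophagy liver 1 and -0.024 with quantile normalization. Hhex, a homeobox factor of early liver and bile duct development, measured 75.3, 44.4 and 64.8 FPKM in control livers and 33.4, 25.7 and 23.0 FPKM in lipophagy livers. All lipophagy livers were below the control livers, with a log2 difference of -1.12 (adjusted p = 0.111). Nr2f2 (COUP-TFII) had a log2 difference of -0.31 and Gata4, a partner of FOXA in opening chromatin, one of -0.28, with adjusted p of 0.163 and 0.292. The largest positive differences were those of Bcl6 (1.22, adjusted p = 0.192), a repressor that marks male liver, Klf15 (0.62, adjusted p = 0.116), a factor of fasting, and Srebf1 (0.59, adjusted p = 0.318), the factor of fatty acid synthesis. Klf15 was 47.6, 60.2 and 54.6 FPKM in control livers and 87.8, 73.2 and 90.8 FPKM in lipophagy livers, without overlap, while the groups of Bcl6 and Srebf1 overlapped.

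The rest of the forkhead family was mostly low in liver. Of 38 other forkhead symbols listed, 37 were in the table, 12 of them at 0 in all livers, and 15 were tested. The symbol not in the table, Foxf1a, is an older name of Foxf1, which was tested. Among the tested genes 12 had a negative and 3 a positive difference, with a median of -0.13 (-0.056 with no filter and -0.077 with quantile normalization). By limma 0 genes passed the adjusted threshold, 2 were lower and 0 higher at an unadjusted p below 0.05, and 3 were lower and 1 higher without overlap. Foxq1 measured 18.5, 12 and 32.4 FPKM in control livers and 3.14, 2.54 and 3.44 FPKM in lipophagy livers. Its groups were far apart, with a log2 difference of -2.34 that missed the threshold (adjusted p = 0.071) and passed it without control liver 2 (-2.67, adjusted p = 0.0138). Foxs1 (-0.34) and Foxj1 (-0.26) had the next largest negative differences, at means near 1 FPKM, and both overlapped between the groups. The 3 positive differences were small: Foxo1, the insulin-regulated factor of gluconeogenesis (0.24), Foxo4 (0.12) and Foxk2 (0.08).

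Coregulators that work with these factors had a median log2 difference of -0.073 over 31 tested of 32 listed (-0.13 with a pseudocount of 0.1). Of these, 21 had a negative and 10 a positive difference. No coregulator passed the adjusted threshold (limma), 3 were lower and 1 higher at an unadjusted p below 0.05, and 6 were lower and 2 higher without overlap. Tle3, a Groucho corepressor of the kind that FOXA proteins recruit, measured 3.45, 3.40 and 2.87 FPKM in control livers and 2.27, 2.41 and 1.77 FPKM in lipophagy livers. It was lower in every lipophagy liver, with a log2 difference of -0.43 (adjusted p = 0.135). Arid1a, a subunit of the SWI/SNF chromatin remodeller (-0.32), and Tle4 (-0.28) followed without overlap. The largest positive differences were those of Ppargc1a (0.23), the coactivator of mitochondrial and gluconeogenic genes, Tle1 (0.20) and Prmt1 (0.18).

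Known target genes of these factors had more positive than negative differences, to an extent that depends on the scaling. Over all tested genes 54.5% were positive, with the median of 0.020 given above. Of 24 tested FOXA targets, 18 had a positive and 6 a negative difference, with a median of 0.20. No FOXA target passed the adjusted threshold (limma), 9 were higher and 1 lower at an unadjusted p below 0.05, and 11 were higher and 1 lower without overlap. With quantile normalization the median was 0.039, 15 differences were positive and 9 negative, 1 gene was higher and 2 lower at an unadjusted p below 0.05, and 1 gene was higher and 1 lower without overlap. Slc10a1, the bile acid uptake transporter NTCP, measured 257, 225 and 221 FPKM in control livers and 451, 357 and 397 FPKM in lipophagy livers. Its groups were well apart, with a log2 difference of 0.77 (adjusted p = 0.0802). G6pc, the last enzyme of glucose production, had the largest difference (1.29) with overlapping groups, and Tat, a tyrosine-degrading enzyme, followed (1.0), also with overlap. On the negative side stood Abcb4, the phospholipid exporter into bile, at 80.6 ± 5.2 (SD, n = 3) against 63.8 ± 6.5 FPKM (SD, n = 3) without overlap (-0.34, adjusted p = 0.160). Cpt1a, which admits fatty acids into mitochondria, had a difference of -0.30 with overlapping groups.

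Targets of HNF4α gave a median of 0.19 over 27 tested genes, 20 positive and 7 negative. With quantile normalization the median was 0.00086, with 14 positive and 13 negative, and without lipophagy liver 1 it was 0.12. No gene of this list passed the adjusted threshold (limma), and at an unadjusted p below 0.05, 8 were higher and 1 lower (0 and 2 with quantile normalization). Without overlap, 9 were higher and 1 lower, which became 0 higher and 3 lower with quantile normalization. Apoa4, an apolipoprotein of triglyceride-rich particles, measured 373, 575 and 568 FPKM in control livers and 208, 266 and 168 FPKM in lipophagy livers. All lipophagy livers were lower, with a log2 difference of -1.23 (adjusted p = 0.103). Cyp7a1, the rate-limiting enzyme of bile acid synthesis, had a difference of -0.28 that became 0.036 without control liver 1, and Apoc2 one of -0.14. After G6pc, the largest positive differences were those of Apom (0.43), an apolipoprotein of HDL, and Prodh (0.37), a mitochondrial enzyme of proline breakdown.

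C/EBPα targets had a median of 0.39 over 18 tested genes, 14 positive and 4 negative, and of 0.20 with quantile normalization, with 12 positive and 6 negative. Of these targets 0 passed the adjusted threshold (limma), 9 were higher and 1 lower at an unadjusted p below 0.05, and 7 were higher and 1 lower without overlap, against 2 higher and 1 lower by either count with quantile normalization. The largest positive differences were G6pc, Tat and Pck1 (0.74), the enzyme that commits carbon to glucose production. The negative ones were led by Apoa4, Trib1 (-0.50), a pseudokinase that lowers C/EBPα protein, and Cyp2a5 (-0.06, and 0.097 without lipophagy liver 1). Targets of LRH-1 had a median of 0.37 over 15 tested genes, 11 positive and 4 negative, and of 0.21 with quantile normalization and 0.18 without lipophagy liver 1. At the adjusted threshold 0 genes were called (limma), 5 were higher and 1 lower at an unadjusted p below 0.05, and 3 were higher and 2 lower without overlap, against 1 higher and 2 lower with quantile normalization. Plk3, a stress-induced kinase, had the largest negative difference (-1.07, adjusted p = 0.135), which passed the threshold without lipophagy liver 3 (-1.40, adjusted p = 0.0146). Pltp, which transfers phospholipids between lipoproteins, had one of -0.18. Beside Slc10a1, the largest positive differences were those of Fasn (0.86), the fatty acid synthase, whose groups overlapped, and Gnmt (0.65), a methyltransferase of methionine metabolism, whose groups did not. The lists share genes such as G6pc, Apoa4 and Slc10a1, so their medians are not independent.

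**Figure D4:**
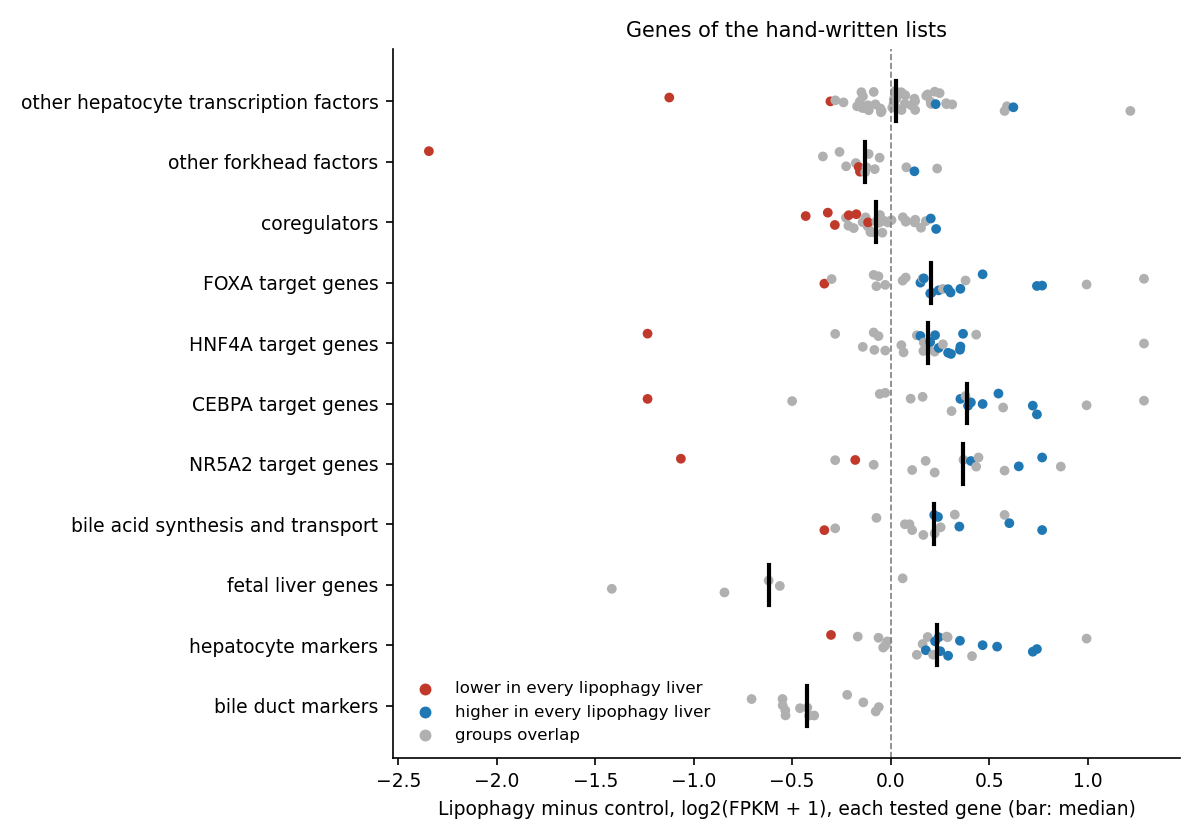
Difference between lipophagy and control livers on the log2(FPKM + 1) scale (horizontal axis) for each tested gene of 11 of the hand-written lists, with red for genes lower and blue for genes higher in every lipophagy liver than in any control liver, grey for overlapping groups, and a black bar for the median of the list. The 4 lists of target genes have medians from 0.19 to 0.39, and with quantile normalization from 0.00086 to 0.21, while all 13 bile duct markers lie below 0 with overlapping groups (11 of them with quantile normalization).

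Genes of bile acid synthesis and transport, which HNF4α, LRH-1 and FOXA share, had a median of 0.22 over 16 tested genes, 13 positive and 3 negative, and of 0.057 with quantile normalization. The adjusted threshold was passed by 0 genes (limma), 6 were higher and 1 lower at an unadjusted p below 0.05, and 5 were higher and 1 lower without overlap. With quantile normalization 10 were positive and 6 negative, 2 were higher and 1 lower at an unadjusted p below 0.05, and 3 were higher and 1 lower without overlap. Slco1a1, an organic anion uptake transporter, was 55.6 ± 3.0 (SD, n = 3) in control and 84.9 ± 2.6 FPKM (SD, n = 3) in lipophagy livers, without overlap (0.60, adjusted p = 0.071). Nr0b2, the bile acid-induced repressor SHP, had a difference of 0.58 with overlap. Abcc2, a canalicular exporter, had one of -0.07, which was 0.058 without control liver 1.

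Genes of the fetal liver were mostly too low to test, with 5 of 16 passing the filter. Afp, the classic fetal gene that mature hepatocytes silence, measured 1.4 ± 0.2 and 1.5 ± 0.2 FPKM (SD, n = 3 each) and had a log2 difference of 0.06. The other 4 had negative differences with overlapping groups, among them Ly6d (-1.42, adjusted p = 0.186), Tspan8 (-0.84) and H19 (-0.62). The median was -0.62 over the tested genes, and -0.083 with no filter, -0.10 with a minimum of 0.1 FPKM and -1.12 with a pseudocount of 0.1. By limma 0 passed the adjusted threshold, while 3 were lower and 0 higher at an unadjusted p below 0.05.

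Markers of hepatocytes and of other liver cells were read beside the factors. Of 24 tested hepatocyte markers 18 had a positive difference, with a median of 0.23 (0.035 with quantile normalization and 0.15 without lipophagy liver 1). Without overlap 10 were higher and 1 lower, against 1 higher and 2 lower with quantile normalization. Ass1, an enzyme of the urea cycle, measured 63.1, 60.9 and 60.8 FPKM in control livers and 117, 104 and 88.4 FPKM in lipophagy livers. It missed the threshold (0.72, adjusted p = 0.0832) and passed it without lipophagy liver 3 (0.83, adjusted p = 0.0417). Cdh1, the adhesion protein E-cadherin, had the largest negative difference (-0.30), followed by Hpx (-0.17) and Apoa1 (-0.06, and 0.044 without control liver 3).

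Bile duct cells also express Foxa1, Foxa2 and Onecut1. All 13 tested bile duct markers of 16 listed had a negative difference, with a median of -0.42 (-0.65 without lipophagy liver 2 and -0.73 with a pseudocount of 0.1), and none of the 16 was at 0 in all livers. The groups overlapped for every one of them, 2 had an unadjusted p below 0.05, and their summed level was 148 to 262 FPKM in control livers and 100 to 210 in lipophagy livers. The largest negative differences were those of Spp1 (-0.71), Epcam (-0.55) and St14 (-0.55), and those of Sox9 (-0.06) and Pkhd1 (-0.08) were among the smallest. With quantile normalization 11 were negative and 2 positive, Sox9 (0.023) and Pkhd1 (0.012), and Sox9 was also positive without lipophagy liver 1 (0.042). Krt19, a keratin of bile duct cells, was 1.91, 4.16 and 4.05 FPKM in control livers and 1.43, 3.36 and 1.37 FPKM in lipophagy livers. Lipophagy liver 2 lay within the range of the control livers. The part of these markers in the values of Foxa1, Foxa2 and Onecut1 was not tested.

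Of 13 stellate cell and fibroblast markers, 12 had a negative difference, with a median of -0.34 (-0.30 with quantile normalization). For 10 of the 13 every lipophagy liver was lower (8 with quantile normalization), as it was for 10.8% of all tested genes. The 13 markers summed to between 200 and 207 FPKM in control livers and between 154 and 181 in lipophagy livers. Col1a1 (-0.75), Col1a2 (-0.63) and Col3a1 (-0.58), which encode fibrillar collagens, had the largest negative differences, and Lrat (0.25) had the only positive one. Macrophage markers had a median of -0.18 over 12 tested genes (-0.083 without control liver 3 and -0.29 with quantile normalization), 8 of them negative, from Cd68 (-0.38) to Vsig4 (0.40). Endothelial markers had a median of 0.072 over 11 tested genes, which ranged from -0.0053 without control liver 3 to 0.18 without control liver 1. Lymphocyte markers had 6 of 14 genes tested and a median of -0.058 (0.026 with quantile normalization and -0.14 without control liver 3), and pancreatic and gut markers 3 of 11, with 6 at 0 in all livers and a median of -0.0084 that took either sign as single livers were left out (-0.14 to 0.082). In none of these lists did a gene pass the adjusted threshold (limma), and their part in the values of the 8 factors was not tested.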

How the data were processed

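The authors deposited 1 table of FPKM, with a row for each symbol and a column for each liver. Per the labels, TruSeq stranded mRNA libraries were read in paired-end mode (100 bases). The submitters' processing notes name TopHat2 2.0.13, Bowtie2 2.2.3, SAMtools 0.1.19, Cufflinks 2.2.1 and mm10. The annotation and strand setting are not given in the sources used here. FPKM is scaled to the total of mapped fragments, so a few abundant genes can shift all others.

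Values were taken to log2(FPKM + 1), and the 11493 genes averaging 0.5 FPKM or more entered limma 3.58.1 (R 4.3.3; moderated variance with an intensity trend, no covariates, two-sided, Benjamini-Hochberg adjustment, threshold 0.05, intervals of 95%). The procedure was also run on simulated data with independent noise, a simpler setting than these livers, and no result here rests on that run. The ratio of Foxa2 to Foxa3 was compared with an exact permutation test. Intervals used the t distribution of scipy 1.17.1. Depth and fragments per gene were estimated from the steps of low FPKM values and GENCODE transcript lengths less 150 bases, cover counting error only, and rest on the 53.6% to 72.1% of low genes that lay on such steps.

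The 8 members and the 17 lists, written by hand, were chosen with earlier results of these data known. Named in the text are the members, in each list the genes past the threshold and up to 3 with the largest positive and negative differences, the 5 genes most and least like Foxa1, and neighbouring genes; Krt19 and Phlda1 were named after their values were seen. For short lists, and for lists of other cells, only some of these are printed, and some named by the rule are not reported here. For 27 symbols that a spreadsheet had made into dates no repair was tried. Alternatives were other pseudocounts (0.1 and 0.5), filters, scalings, no trend in limma, a replicate block, leaving out single livers, and unadjusted p.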

Additional observations from a re-analysis of the deposited data

How the results depend on the processing

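Of 105 alternatives tried on the 7 factors other than Foxa1, 94 kept the direction and the side of the threshold. Differences near 0 turned sign in 10. With quantile normalization these were Foxa3 (-0.033), Hnf4a (-0.056) and Cebpa (-0.14). Leaving out 1 liver at a time, Foxa3 ranged from -0.080 to 0.24 (below 0 without control replicate 2 or lipophagy replicate 3), Cebpa from -0.049 to 0.092 (below 0 without control replicate 1 or lipophagy replicate 2) and Nr5a2 from -0.047 to 0.098 (below 0 without control replicate 2, control replicate 3 or lipophagy replicate 1). The log2 difference of Foxa1 was -0.95 with a pseudocount of 0.1 and -0.87 with 0.5, and -0.84 to -0.75 leaving out 1 liver at a time. Its share of the FOXA sum differed by -4.85 percentage points, and by -5.52 to -4.17 leaving out 1 liver at a time. The 3 genes called lower became 1 with no filter and 916 at an unadjusted p, with 1 to 7 leaving out 1 liver. The 0 genes called higher became 1327 at an unadjusted p, with 0 to 4 leaving out 1 liver. Of the listed genes 0 were called, and 0 to 2 leaving out 1 liver. Leaving out a liver lowers the number of samples, and dropping the filter raises the number of genes tested. Why the counts changed was not tested. With the replicate number as a block in limma, 26 genes were called lower and 17 higher, and Foxa2 passed the threshold (log2 difference -0.78, adjusted p = 0.0377). Of the listed genes 8 were called: Foxq1, Bcl6, Ly6d, Hhex, Slc10a1, Apoa4, Ass1 and Col1a1. The replicate numbers share no stated litter or day. The deviations of same-numbered livers correlated at 0.25, 0.234 and -0.057, with control liver 3 closest to lipophagy liver 2 (0.251). Same-numbered livers were therefore not taken as pairs. Over the alternatives, 36 of 255 list medians moved by more than the spread between livers, and 13 of the 255 had the opposite sign. Estimated depth limits Onecut1 most, with 30 to 62 fragments in lipophagy livers.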
